A study of Mus musculus with 9 samples.

Results

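The 95 genes described here encode the chains of collagens and laminins and the proteases of the matrix metalloproteinase and Adamts families. They are the rows of the deposited gene table whose symbol names a collagen chain (Col, a number, a, a number; 44 genes), a laminin chain (Lama, Lamb or Lamc and a digit; 11 genes), a matrix metalloproteinase (Mmp and a number; 21 genes) or an Adamts protease (Adamts and a number; 19 genes), out of 49585 rows. The rule uses names alone. Mmp1a and Mmp1b, whose symbols end in a letter, lie outside it and had no count in any library.

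Libraries came from wild-type C57BL/6 mouse bone marrow cells, isolated as CD34−CD150+KSL haematopoietic stem cells (HSCs; KSL means Kit positive, Sca-1 positive, lineage negative) and expanded in F12 medium with the ITS supplement, 0.1% polyvinyl alcohol, thrombopoietin at 100 ng/ml and stem cell factor at 10 ng/ml. After 10 days by the design text, or a week by the growth protocol, 3 populations were sorted, with 3 replicate libraries each. They were CD201+CD150+CD48−KSL cells (CD201+CD48− below), CD201+CD150+CD48+KSL cells (CD201+CD48+) and CD201−KSL cells (CD201−), and the titles of the last add CD150+CD48+ to their gate. CD201 is the endothelial protein C receptor, a surface marker used to enrich HSCs. No label ties the replicates to separate animals or cultures, so p-values measure the spread between these libraries, which may be technical.

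Libraries held 3810123 to 7072885 counts. CD201− replicate 3 stood apart, with 584 tested genes over 2-fold from the mean of its replicates against 53 to 233 for the other 8 libraries. Results that change without it are given both ways for the genes tested in the fit reported. All 9 HSC markers examined had counts, and Procr, the gene of CD201, had 900, 491 and 49 counts over the CD201+CD48−, CD201+CD48+ and CD201− libraries. Of 10 stromal markers, Dcn and Lum were at 0 and Pdgfrb alone had more than 29 counts over the 9 libraries. The summed stromal level in CPM (counts scaled to a common library size) was mostly Pdgfrb. It was 7.09 to 8.84 CPM in CD201+CD48−, 17.8 to 21.7 in CD201+CD48+ and 41.2 to 56.4 in CD201− libraries. Pdgfrb alone averaged 5.17, 17.7 and 48.4 CPM in that order, so the order of the sum is that of 1 gene. Of 8 endothelial markers Stab2 was at 0, Sox17 had 1 count and Cldn5 4, and the summed level, mostly Kdr, Emcn and Cdh5, was 47.2 to 57.9, 32.7 to 37.8 and 23.2 to 24.8 CPM. Osteoblast markers (5 of 6 with counts, Bglap at 0, mostly Runx2) summed to 102.3 to 124.1, 110.0 to 114.8 and 81.7 to 96.7 CPM. Macrophage markers (all 10 with counts, mostly Lyz2) summed to 145.5 to 161.7, 100.1 to 102.5 and 58.7 to 76.8 CPM. Neutrophil markers (7 of 10 with counts, mostly Ltf; S100a9, Retnlg and Fcnb at 0) summed to 7.07 to 11.1, 4.95 to 8.32 and 1.51 to 3.29 CPM. Mast cell markers (6 of 8 with counts, mostly Cpa3; Tpsb2 and Cma1 at 0) summed to 1.77 to 3.28, 2.06 to 3.02 and 6.79 to 9.07 CPM. What part cells of these types had in the results below was not tested.

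Collagens are secreted as trimers of alpha chains. Type IV collagen, a network former, and the laminins, trimers of 1 alpha, 1 beta and 1 gamma chain, are the main scaffold of basement membranes, the sheets under endothelial and epithelial cells that also line marrow vessels. Matrix metalloproteinases and Adamts enzymes are zinc proteases that cut matrix or process its precursors, and Timp proteins inhibit them. In bone marrow, matrix is mostly credited to stromal, bone and endothelial cells, while laminins and collagens are also known as ligands that hold HSCs through integrins.

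Of the 95 genes, 86 (90.5%) had at least 1 count in the 9 libraries, against 43.8% of all 49585 rows, and 54 had 10 or more. Only 22 passed the count filter and were tested, 23.2% of the 95 beside 23.4% of all rows. They were 10 collagen, 3 laminin, 5 metalloproteinase and 4 Adamts genes. No count was found for Col9a1, Mmp3, Mmp7, Mmp10, Mmp13, Mmp20, Mmp25, Adamts8 and Adamts19, and 0 of 46303043 counts allows up to 0.0648 CPM for each. These limits allow for counting error and nothing else, as no molecular identifiers are described and copies of 1 molecule may be counted repeatedly. A single library held 42 to 74 of the 95 genes, and the group with the most (82, against 69 in CD201+CD48− and 66 in CD201−) was CD201+CD48+, which holds the deepest library.

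**Figure D1:**
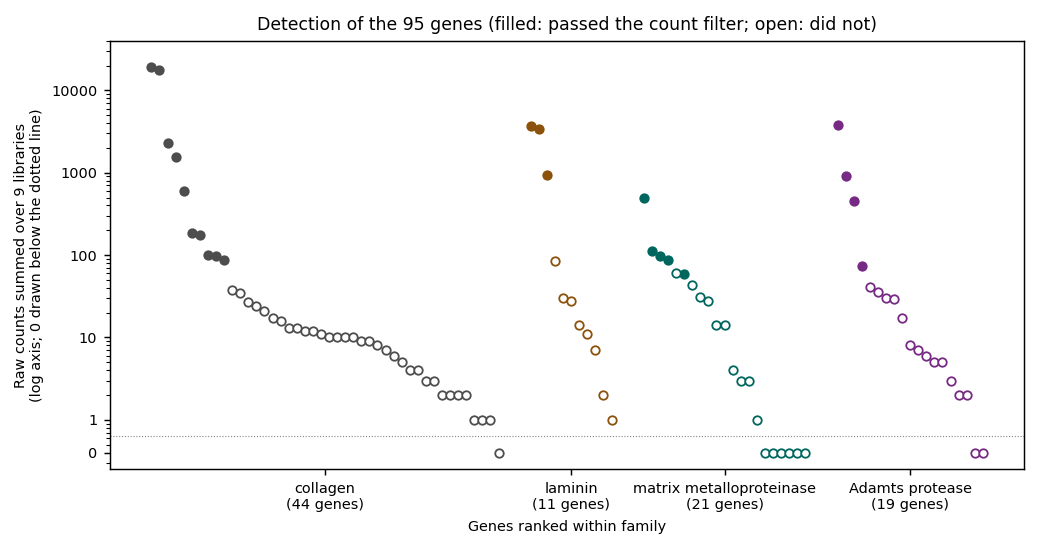
Raw counts summed over the 9 libraries for each of the 95 genes (log axis), ranked within family; filled points passed the count filter and open points did not. Col4a1 and Col4a2 stand far above the other collagens, 9 genes lie at 0, and most genes of each family are open points.

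Counts were concentrated in a few genes. Col4a1 and Col4a2 held 87.1% of the 42131 collagen counts and 64.7% of the counts of all 95 genes. Among laminins, Lama5 held 97.3% to 98.2% of alpha chain counts in each population and Lamc1 99.9% to 100% of gamma chain counts. The genes of the common fibrillar collagens were near the floor: Col1a1 had 27 counts over 9 libraries, Col1a2 13 and Col3a1 1, and of 11 fibrillar collagen genes only Col2a1 and Col11a2 were tested. Neutrophil collagenase and gelatinase B, encoded by Mmp8 and Mmp9, had 3 counts each. Levels per length (CPM per kilobase of exon) put Col4a2 (70.9 ± 1.8) and Col4a1 (67.3 ± 1.5) at the top in CD201+CD48− cells, followed by Col18a1 (11.6 ± 0.28; SD, n = 3). Lamb2 (7.36 ± 0.44), Lamc1 (7.29 ± 0.19) and Adamts10 (7.12 ± 0.69) came next on this scale and did not differ beyond their spread, and Lama5 (6.35 ± 0.57) and Col16a1 (6.19 ± 0.50) were close below. The length joins all annotated exons of a gene and can exceed that of its transcripts, an error outside these SDs, so the ranking is approximate. In CD201− cells the order per kilobase was Col4a1 (42.6 ± 4.7), Col4a2 (35.7 ± 2.8), Lama5 (6.79 ± 1.6), Lamc1 (6.64 ± 0.62), Col18a1 (5.80 ± 0.19), Adamts10 (4.46 ± 0.11) and Col16a1 (4.29 ± 0.62). Lama5 differed from Lamc1 and Col18a1 by less than its SD, and Adamts10 from Col16a1 by less than the SD of Col16a1. Lamb2 stood far lower there, at 0.143 ± 0.14 CPM per kilobase.

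The main comparison asked which of these genes differ between CD201+CD48− cells, which keep the surface phenotype used to enrich HSCs, and CD201− cells. Of the 22 tested, 12 were higher in CD201+CD48− cells, 2 were lower and 8 did not pass (edgeR quasi-likelihood test, Benjamini-Hochberg adjusted p under 0.05 over all 11619 genes tested). Over all genes tested, 48.1% were called, 24.2% higher and 23.9% lower. The median log2 fold change was 0.59 over the 22, a value that the filter shapes as described next, and 0.003 over all genes. The filter shapes this count: of the 12, Col4a1, Col4a2, Col16a1, Col18a1 and Adamts10 reached the filter level in all 3 populations, Lamb2 and Mmp16 only in both CD201+ populations, and Col4a5, Mmp2, Mmp14, Mmp17 and Mmp28 only in CD201+CD48− libraries, so the last 7 entered the test through the groups where they are high. In CD201+CD48+ against CD201− cells, 7 were higher and 3 lower, where 29.1% of all genes were called, 14.8% higher and 14.3% lower. Between the CD201+ populations, 8 were higher in CD201+CD48− cells, where 15.4% of all genes were called, 9.05% higher. None of the 22 passed as lower there (6.31% of all genes), with edgeR, DESeq2 or limma-voom, and 1, Adamts3, was lower at an unadjusted p under 0.05 with each of these tools. The filter shapes the counts of the last 2 comparisons too. Of the 7, Lamb2, Mmp16, Col4a5 and Mmp28 reached its level only in CD201+ populations. Of the 3 lower, Col2a1 reached it in CD201− libraries alone. Of the 8, Col4a5, Mmp14 and Mmp17 reached it in CD201+CD48− libraries alone. In bulk libraries, fewer cells that express a gene and less RNA per cell cannot be told apart. Of the 22 genes, 13 overlap another annotated gene, whose reads cannot be told from theirs if strand was not used in counting. The first 2 comparisons share the CD201− libraries, and the third shares a group with each of them.

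**Figure D2:**
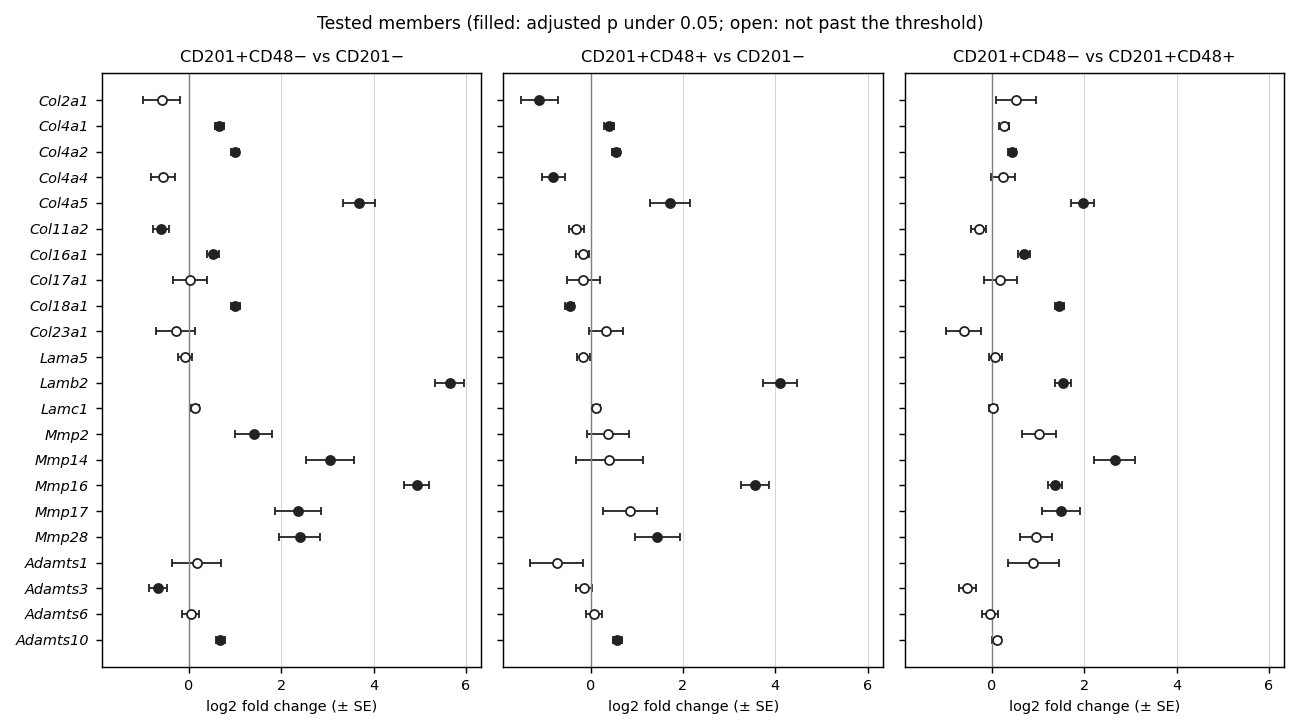
Log2 fold change with its standard error for the 22 tested genes in the 3 comparisons; filled points passed an adjusted p under 0.05. Lamb2 (5.64) and Mmp16 (4.93) lie farthest to the right in the comparison of CD201+CD48− with CD201− cells, while Lama5 and Lamc1 lie near 0 in all 3 panels.

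The network-forming collagen IV genes came first by level. Col4a1 (chromosome 8, 11198423 to 11312889, mm10) and Col4a2 (chromosome 8, 11312805 to 11449287) encode the alpha 1 and alpha 2 chains, which assemble in a common trimer, and lie head to head on opposite strands. Their annotated bodies overlap by 85 bases, and as the use of strand in counting is not stated, reads from that stretch cannot be assigned with certainty. The promoter windows of RefSeq on GRCm38.p6, the assembly of mm10, are shown because they overlap and both genes moved the same way. Each window runs from 250 bases before to 50 after a start used in the RefSeq table, which for Col4a1, Col4a5 and Lamb2 is not the outermost end of the gene coordinates given here. Capitals mark the 78 bases that the windows have in common, read on opposite strands. The Col4a1 window is chr8:11312777-11313076 on the minus strand and the Col4a2 window chr8:11312555-11312854 on the plus strand.
Col4a1: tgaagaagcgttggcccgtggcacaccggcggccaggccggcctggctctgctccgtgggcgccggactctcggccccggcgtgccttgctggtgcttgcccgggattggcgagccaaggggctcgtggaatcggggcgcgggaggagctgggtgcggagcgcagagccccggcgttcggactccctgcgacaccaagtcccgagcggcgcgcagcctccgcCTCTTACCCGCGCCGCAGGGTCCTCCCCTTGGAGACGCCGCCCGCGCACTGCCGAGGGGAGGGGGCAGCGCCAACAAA
Col4a2: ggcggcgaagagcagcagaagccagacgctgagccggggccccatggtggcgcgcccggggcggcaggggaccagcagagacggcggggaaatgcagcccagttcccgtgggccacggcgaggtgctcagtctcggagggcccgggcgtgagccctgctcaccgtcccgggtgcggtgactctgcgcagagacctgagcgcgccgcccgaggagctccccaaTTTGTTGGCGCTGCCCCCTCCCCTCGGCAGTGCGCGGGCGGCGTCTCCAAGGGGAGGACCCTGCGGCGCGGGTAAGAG

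Both windows hold a CCAAT box (CCAAT, found in 37.4% of the 32851 windows of all genes) and a GC box (GGGCGG, 35.7%), searched on both strands. A TATA box (TATAAA, 13.6% of all windows) occurs in neither. The same holds for AGATAA (11.2%), which resembles the binding motif of blood cell GATA factors. Windows were found for 15 of the 22 tested genes, 16 windows in all, of which 7 held CCAAT, 12 GGGCGG, 3 TATAAA and 2 AGATAA. A match is a stretch of letters and not a measured site.

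Col4a1 stood at 491, 513 and 503 CPM in the CD201+CD48− libraries (replicates 1 to 3), at 488, 391 and 378 in CD201+CD48+ and at 283, 317 and 354 in CD201−. All CD201− values lay below all CD201+ values, and CD201+CD48+ replicate 1 reached almost to the CD201+CD48− level. The log2 fold change against CD201− cells was 0.66 ± 0.10 (SE, adjusted p = 9.55e-05) for CD201+CD48− and 0.40 ± 0.10 (adjusted p = 0.00964) for CD201+CD48+, the latter lost without CD201+CD48+ replicate 1 (0.27, adjusted p = 0.0635). Between the CD201+ populations Col4a1 did not pass (0.26 ± 0.10, adjusted p = 0.105), but 5 of 17 alternatives called it (adjusted p of the 17 between 0.0176 and 0.373), among them the fit without CD201− replicate 3 (0.26, adjusted p = 0.0471). Col4a2 stood at 497, 507 and 523 CPM in CD201+CD48−, 418, 364 and 347 in CD201+CD48+ and 241, 248 and 279 in CD201− libraries, with no overlap between any of the groups. It passed in all 3 comparisons, with 0.99 ± 0.09 (adjusted p = 3.12e-07), 0.56 ± 0.09 (adjusted p = 2.63e-04) and 0.44 ± 0.09 (adjusted p = 0.00293) in the order used above.

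The ratio of the pair was read within each library. Col4a2 had 1.01, 0.989 and 1.04 counts per Col4a1 count in the CD201+CD48− libraries, 0.855, 0.932 and 0.917 in CD201+CD48+ and 0.851, 0.781 and 0.789 in CD201−. The 3 groups did not overlap, with means of 1.01 ± 0.026, 0.902 ± 0.041 and 0.807 ± 0.039 (SD, n = 3). An exact two-sided permutation test of this ratio gave p = 0.1 in each of 3 pairs of groups (adjusted p = 0.1), the smallest that 3 against 3 libraries allow. A ratio within libraries does not depend on the scaling between them.

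**Figure D3:**
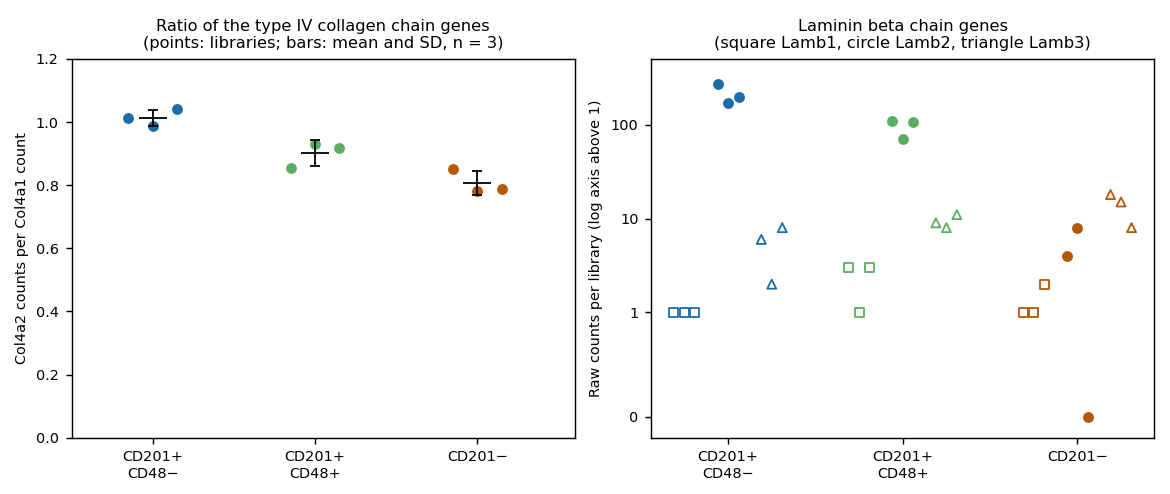
Left, Col4a2 counts per Col4a1 count in each library with group mean and SD (n = 3), highest in CD201+CD48− (0.989 to 1.04) and lowest in CD201− libraries (0.781 to 0.851). Right, raw counts of the 3 laminin beta chain genes per library on an axis that is logarithmic above 1; Lamb2 falls from 170 to 271 counts in CD201+CD48− to 0 to 8 in CD201− libraries.

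Of the other type IV chains, Col4a5 (chromosome X, 141475370 to 141689236), which encodes the alpha 5 chain, differed most. It had 47, 40 and 36 raw counts in the CD201+CD48− libraries, 15, 10 and 16 in CD201+CD48+ and 3, 2 and 4 in CD201−. The groups did not overlap in CPM either, with means of 8.79 ± 1.15, 2.22 ± 0.337 and 0.657 ± 0.223 CPM (SD, n = 3). Its log2 fold change was 3.69 ± 0.35 (SE, adjusted p = 5.31e-07) for CD201+CD48− against CD201−, 1.73 ± 0.43 (adjusted p = 0.00733) for CD201+CD48+ against CD201−, and 1.96 ± 0.26 (adjusted p = 7.99e-05) between the CD201+ populations. Col4a6, its head-to-head neighbour 1274 bases away, failed the count filter with 18, 4 and 6 counts in CD201+CD48−, 2, 2 and 1 in CD201+CD48+ and 1, 0 and 4 in CD201− libraries. Most of its CD201+CD48− counts came from replicate 1. Col4a4, a chain of the alpha 3, alpha 4, alpha 5 network of kidney and lung, went the other way, at 3.68 ± 0.669, 3.16 ± 0.119 and 5.54 ± 0.195 CPM. Its level in CD201+CD48+ cells was below that in CD201− cells (−0.81 ± 0.25, adjusted p = 0.0226), and 7 of 17 alternatives lost this call (their adjusted p ran from 0.0208 to 0.0805). Col4a4 did not pass for CD201+CD48− against CD201− (−0.57 ± 0.25, adjusted p = 0.0751). Its neighbour Col4a3 had 3 counts in all.

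The window of Col4a5 (chrX:141475169-141475468, plus strand) is given as that of the tested collagen gene with the largest fold change against CD201− cells, with its CCAAT box and GC box in capitals.
Col4a5: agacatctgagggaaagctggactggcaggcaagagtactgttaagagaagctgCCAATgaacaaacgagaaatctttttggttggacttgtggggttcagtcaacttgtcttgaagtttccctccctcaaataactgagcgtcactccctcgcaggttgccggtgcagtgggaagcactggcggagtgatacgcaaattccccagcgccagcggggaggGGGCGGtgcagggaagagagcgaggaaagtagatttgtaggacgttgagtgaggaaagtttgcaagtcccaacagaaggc

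Col18a1 (chromosome 10, 77052178 to 77166530) encodes collagen XVIII, a basement membrane heparan sulphate proteoglycan whose C-terminal fragment is endostatin. It stood at 84.2, 81.4 and 80.4 CPM in the CD201+CD48− libraries, at 33.0, 27.6 and 29.0 in CD201+CD48+ and at 40.9, 39.6 and 42.3 in CD201−. No groups overlapped, and unlike Col4a1, Col4a2 and Col4a5 the lowest group was CD201+CD48+. The log2 fold change was 1.00 ± 0.09 (SE, adjusted p = 3.93e-07) for CD201+CD48− against CD201−, −0.46 ± 0.10 (adjusted p = 0.00284) for CD201+CD48+ against CD201−, and 1.46 ± 0.09 (adjusted p = 3.42e-08) between the CD201+ populations. The summed level of 10 megakaryocyte and platelet markers, all with counts, had the same order of groups, at 1586 to 1645 CPM in CD201+CD48−, 471.5 to 503.0 in CD201+CD48+ and 678.7 to 833.5 in CD201− libraries. Single markers differed from the sum: Vwf was lowest in CD201− (715, 125 and 65.5 CPM in the order CD201+CD48−, CD201+CD48+, CD201−) and Itga2b highest there (298, 79.1 and 356 CPM). Most of the gap in the sum between CD201+CD48+ and CD201− libraries was Itga2b, so the order of these groups rests mostly on that gene. The part of these markers in the Col18a1 result was not tested.

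Col16a1 (chromosome 4, 130047817 to 130099277), a fibril-associated collagen gene, was higher in CD201+CD48− cells than in both other populations. Its values were 40.6, 47.5 and 46.1 CPM there, 32.5, 24.0 and 26.1 in CD201+CD48+ and 32.1, 34.9 and 26.1 in CD201−. The CD201+CD48− libraries lay above the rest and the other groups overlapped. The log2 fold change was 0.52 ± 0.14 (SE, adjusted p = 0.00479) against CD201− and 0.69 ± 0.13 (adjusted p = 0.0022) against CD201+CD48+ cells, and −0.17 ± 0.14 (adjusted p = 0.377) between those.

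Col11a2, which encodes a chain of the fibrillar cartilage collagen XI, was lower in CD201+CD48− cells, with 10.2, 9.60 and 11.1 CPM against 15.3, 15.9 and 15.8 in CD201− libraries (−0.60 ± 0.17, SE, adjusted p = 0.00933). CD201+CD48+ libraries had 14.4, 14.0 and 10.0 CPM, below all CD201− libraries and overlapping CD201+CD48−, and did not pass against either (−0.31 ± 0.16, adjusted p = 0.167, against CD201−; −0.29 ± 0.17, adjusted p = 0.287, for CD201+CD48− against CD201+CD48+). With library size as the only scaling the Col11a2 call against CD201− cells was lost (−0.43, adjusted p = 0.0568). Col2a1, the main cartilage collagen gene, had 11, 10 and 23 counts in CD201−, 13, 6 and 11 in CD201+CD48− and 7, 9 and 11 in CD201+CD48+ libraries. It reached the filter level in CD201− libraries alone, the group where it is highest. It passed as lower in the CD201+CD48+ group against CD201− (−1.12 ± 0.40, adjusted p = 0.0479), but lost the call in 13 of 17 alternatives, and without CD201− replicate 3, which held the 23 counts, it was −0.63 (adjusted p = 0.3). Col17a1, a transmembrane collagen of hemidesmosomes, and Col23a1, another transmembrane collagen, had 97 and 88 counts in all and passed in no comparison (adjusted p from 0.324 to 0.993).

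Among laminins the difference lay in the beta chain. Lamb2 (chromosome 9, 108479847 to 108490530), which encodes the beta 2 chain, had 271, 170 and 197 raw counts in the CD201+CD48− libraries, 108, 70 and 107 in CD201+CD48+ and 4, 8 and 0 in CD201−. In CPM these are 44.8 ± 2.65, 15.5 ± 2.69 and 0.869 ± 0.861 (SD, n = 3), with no overlap between groups. The 0 in CD201− replicate 3 allows up to 0.657 CPM. The log2 fold change was 5.64 ± 0.31 (SE, adjusted p = 2.58e-09) for CD201+CD48− against CD201−, 4.11 ± 0.37 (adjusted p = 1.56e-06) for CD201+CD48+ against CD201− and 1.54 ± 0.18 (adjusted p = 3.19e-05) between the CD201+ populations. With so few CD201− counts the size is loosely fixed: without CD201− replicate 2, which holds 8 of the 12, the first 2 values were 6.59 and 5.06, and without replicate 3 they were 5.08 and 3.54.

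The Lamb2 promoter window (chr9:108479612-108479911, plus strand) is shown because this gene had the largest fold change of the 22 tested against CD201− cells. None of the 4 motifs occurs in it, so it is printed without capitals.
Lamb2: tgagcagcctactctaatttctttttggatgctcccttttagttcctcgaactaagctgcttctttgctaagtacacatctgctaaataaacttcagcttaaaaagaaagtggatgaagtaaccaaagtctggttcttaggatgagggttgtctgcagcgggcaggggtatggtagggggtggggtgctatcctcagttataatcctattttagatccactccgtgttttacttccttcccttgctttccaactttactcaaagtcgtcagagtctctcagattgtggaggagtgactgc

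The chains that pair with it differed far less. Lama5, the alpha 5 chain gene (chromosome 2, 180176373 to 180225904), stood at 76.6, 65.2 and 76.4 CPM in CD201+CD48−, 77.1, 62.9 and 68.6 in CD201+CD48+ and 86.3, 89.9 and 57.0 in CD201− libraries. The ranges overlapped, CD201− replicate 3 being the lowest of all, and no comparison passed (−0.09 ± 0.14, −0.16 ± 0.14 and 0.07 ± 0.14, SE; adjusted p from 0.433 to 0.81). Without that library Lama5 passed as lower than CD201− in CD201+CD48− cells (−0.27, adjusted p = 0.00763) and in CD201+CD48+ cells (−0.34, adjusted p = 0.00137). Lamc1, the gamma 1 chain gene (chromosome 1, 153218922 to 153332786), stood at 81.9, 84.9 and 80.6 CPM, 82.7, 83.7 and 77.8 CPM and 71.9, 70.4 and 83.3 CPM in the same order of groups. Its differences were 0.13 ± 0.09, 0.11 ± 0.08 and 0.02 ± 0.08 (SE; adjusted p from 0.215 to 0.913). Lamc1 passed as higher in CD201+CD48− cells, against CD201−, when CD201− replicate 3 was left out (0.21, adjusted p = 0.0346), and with library size as the only scaling (0.31, adjusted p = 0.00425), a scaling that moved the median of all genes by 0.17 and turned the sign of Lama5 there (0.07, adjusted p = 0.759).

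The other beta chains did not take the place of Lamb2 in counts. Lamb1, the broadly expressed beta 1 chain gene, had 3, 7 and 4 counts over the CD201+CD48−, CD201+CD48+ and CD201− libraries. Lamb3, the beta chain of epithelial laminin-332, had 6, 2 and 8 counts in CD201+CD48−, 9, 8 and 11 in CD201+CD48+ and 18, 15 and 8 in CD201− libraries, and failed the filter. Beta chain counts therefore summed to 657, 320 and 57, of which Lamb2 held 97.1% in CD201+CD48− and 89.1% in CD201+CD48+ cells, and Lamb3 71.9% in CD201− cells. Alpha chain counts summed to 1058, 1318 and 1088 and gamma chain counts to 1165, 1495 and 1032 in the same order.

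**Figure D4:**
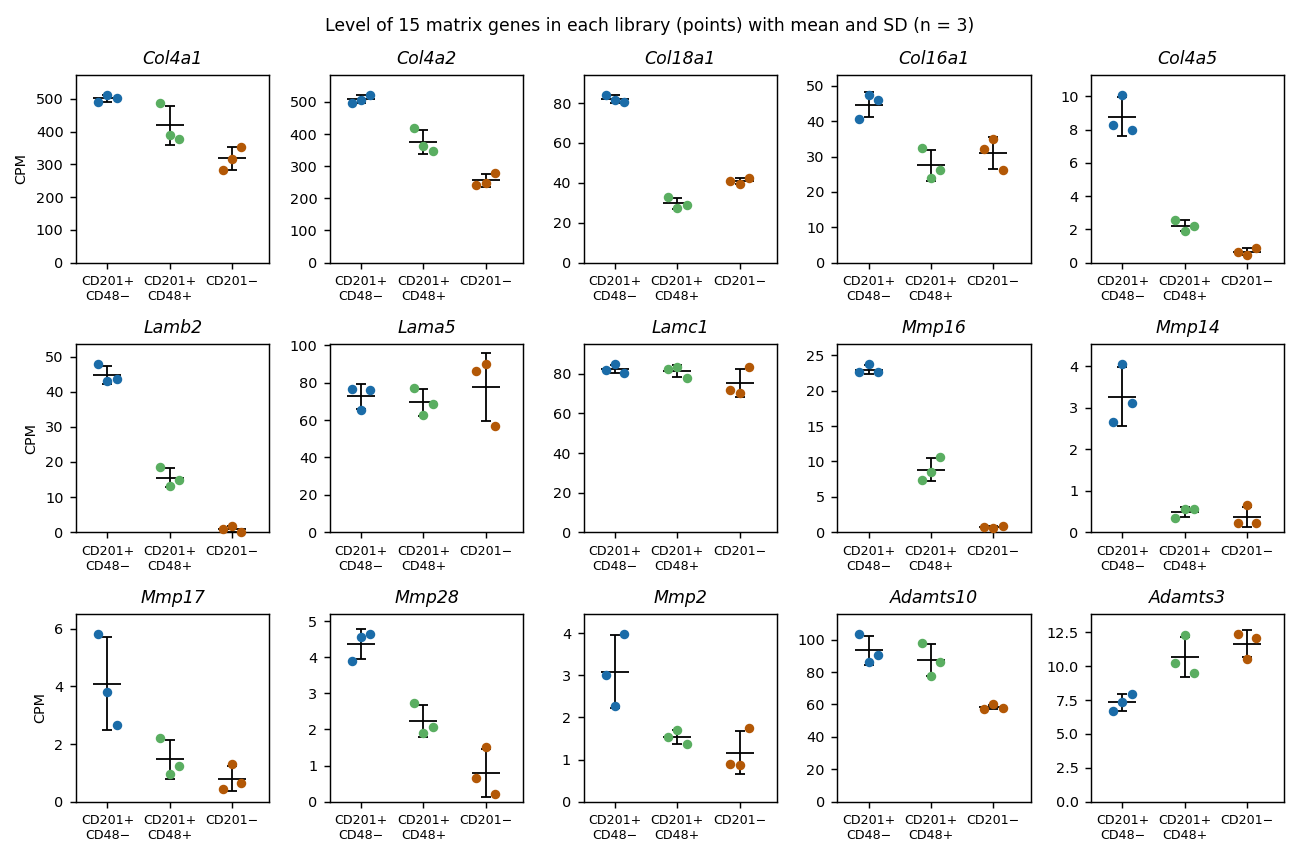
CPM of 15 genes in each library (points), with group mean and SD (n = 3); every vertical axis starts at 0. Lamb2, Mmp16 and Col4a5 step down from CD201+CD48− to CD201+CD48+ to CD201− libraries, Col18a1 is lowest in CD201+CD48+, and Lama5 and Lamc1 overlap between groups.

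Of 21 metalloproteinase genes, 5 were tested, and each of them entered through CD201+ groups: Mmp16 reached the filter level in both and the other 4 in CD201+CD48− alone. These 5 were called higher in CD201+CD48− against CD201− cells, where 24.2% of all genes were, and the filter shapes that count. The summed level of the family was 39.9 to 44.0 CPM in CD201+CD48−, 18.6 to 19.7 in CD201+CD48+ and 7.45 to 8.63 in CD201− libraries. Mmp16, Mmp14 and Mmp17 encode membrane-anchored proteases, known as MT3-MMP, MT1-MMP and MT4-MMP. Mmp16 (chromosome 4, 17853072 to 18117479) had 128, 94 and 102 counts in CD201+CD48−, 43, 45 and 77 in CD201+CD48+ and 3, 3 and 4 in CD201− libraries. The groups did not overlap, and their means were 23.0 ± 0.669, 8.81 ± 1.64 and 0.729 ± 0.128 CPM (SD, n = 3). Its log2 fold change was 4.93 ± 0.27 (SE, adjusted p = 1.47e-09) and 3.57 ± 0.31 (adjusted p = 7.86e-07) against CD201− for CD201+CD48− and CD201+CD48+, and 1.36 ± 0.16 (adjusted p = 2.8e-05) between them.

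Mmp14 (chromosome 14, 54431598 to 54442456), which activates the gelatinase encoded by Mmp2, had few counts and was higher in CD201+CD48− cells than in both other populations. It had 15, 16 and 14 counts there, 2, 3 and 4 in CD201+CD48+ and 1, 3 and 1 in CD201− libraries, and the last 2 groups overlapped in CPM. It was 3.06 ± 0.52 (SE, adjusted p = 1.77e-04) higher on the log2 scale than in CD201− and 2.65 ± 0.45 (adjusted p = 8.68e-04) higher than in CD201+CD48+ cells, with 0.40 ± 0.73 (adjusted p = 0.721) between those, and 3.72 against CD201− cells without their replicate 2. Mmp17 had 33, 15 and 12, then 13, 5 and 9, then 2, 6 and 3 counts in the same order of groups. CD201+CD48− replicate 1 was its highest library, and the 2 groups other than CD201+CD48− overlapped. Mmp17 passed for CD201+CD48− against CD201− (2.35 ± 0.50, adjusted p = 0.00108) and against CD201+CD48+ cells (1.50 ± 0.41, adjusted p = 0.0208). The second call was lost in 4 of 17 alternatives, all of which leave out a library: CD201+CD48− replicate 1 (1.11, adjusted p = 0.179), CD201+CD48− replicate 2 (1.55, adjusted p = 0.0512), CD201+CD48+ replicate 2 (1.29, adjusted p = 0.0968) or CD201+CD48+ replicate 3 (1.36, adjusted p = 0.105).

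The secreted enzymes Mmp2, gelatinase A, and Mmp28, epilysin, were as low as Mmp14 and Mmp17. In CD201+CD48− cells Mmp2 averaged 3.09 ± 0.859 and Mmp28 4.36 ± 0.416 CPM, beside 3.26 ± 0.712 for Mmp14 and 4.09 ± 1.61 for Mmp17 (SD, n = 3). Mmp2 had 17, 9 and 18 counts in CD201+CD48−, 9, 9 and 10 in CD201+CD48+ and 4, 4 and 8 in CD201− libraries (1.40 ± 0.41 for CD201+CD48− against CD201−, SE, adjusted p = 0.0105; without CD201+CD48− replicate 3, 1.19, adjusted p = 0.055). Mmp28 had 22, 18 and 21, then 16, 10 and 15, then 3, 7 and 1 counts, with no overlap between groups in CPM. Its log2 fold change was 2.40 ± 0.45 (SE, adjusted p = 3.98e-04) for CD201+CD48− against CD201−, or 3.23 without CD201− replicate 2. For CD201+CD48+ against CD201− it was 1.45 ± 0.49 (adjusted p = 0.036), and 8 of 16 alternatives lost this call (their adjusted p ran from 0.0114 to 0.115), with 1.02 without CD201− replicate 3 and 2.28 without replicate 2. Between the CD201+ populations Mmp2 (1.02 ± 0.36, adjusted p = 0.0737) and Mmp28 (0.95 ± 0.34, adjusted p = 0.075) did not pass, but both did without CD201− replicate 3 (adjusted p = 0.0363 and 0.0207).

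The Adamts genes gave 1 call in each direction. Adamts10 (chromosome 17, 33523646 to 33553782), an enzyme linked to fibrillin microfibrils, was the most counted of the 19. It stood at 104, 86.2 and 90.6 CPM in CD201+CD48−, 97.9, 77.9 and 86.5 in CD201+CD48+ and 57.3, 60.0 and 58.1 in CD201− libraries, so that both CD201+ groups lay above CD201− and overlapped each other. The log2 fold change was 0.68 ± 0.10 (SE, adjusted p = 4.9e-05) and 0.58 ± 0.10 (adjusted p = 4.83e-04) against CD201−, and 0.10 ± 0.10 (adjusted p = 0.538) between the CD201+ populations. Adamts3, a procollagen N-proteinase that also processes VEGF-C, was lower in CD201+CD48− (6.71, 7.33 and 7.97 CPM) than in CD201− libraries (12.4, 10.5 and 12.1 CPM), by a log2 fold change of −0.67 ± 0.19 (adjusted p = 0.00738). CD201+CD48+ libraries had 10.3, 12.3 and 9.49 CPM, and the difference of CD201+CD48− from them (−0.54 ± 0.18, adjusted p = 0.0597) passed without CD201− replicate 3 (adjusted p = 0.0237). Adamts6 (19.0 ± 4.33, 19.8 ± 2.89 and 18.9 ± 3.18 CPM; SD, n = 3) and Adamts1, which cleaves the proteoglycans aggrecan and versican (2.00 ± 0.405, 1.08 ± 0.866 and 1.82 ± 1.11 CPM), passed in no comparison (adjusted p from 0.322 to 0.901).

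The 32 genes that had 10 or more counts over the 9 libraries but failed the filter are given as raw counts. Mmp24 (61), Mmp11 (43), Mmp23 (31), Mmp19 (28), Mmp15 (14) and Mmp21 (14) were the metalloproteinases. Mmp11, stromelysin-3, had 5, 8 and 7 counts in CD201+CD48−, 6, 5 and 6 in CD201+CD48+ and 1, 2 and 3 in CD201− libraries. Mmp23 had 9, 3 and 2, then 6, 2 and 7, then 2, 0 and 0 counts. The Adamts genes were Adamts9 (41), Adamts12 (36), Adamts17 (30), Adamts20 (29) and Adamts7 (17), and Adamts9 had 18 counts over the CD201+CD48− libraries, 20 over CD201+CD48+ and 3 over CD201−. Beside Lamb3 and Lamb1, the laminins were Lama4 (30), Lama3 (28) and Lama2 (11). Beside Col4a6, Col1a1 and Col1a2, the collagens were Col14a1 (35), Col27a1 (24), Col6a6 (21), Col5a3 (17), Col6a3 (16), Col8a2 (13), Col5a1 (12), Col5a2 (12), Col20a1 (11), Col6a2 (10), Col12a1 (10), Col13a1 (10) and Col15a1 (10). Col8a2 had 7 of its 13 counts in CD201− replicate 3. The other 32 genes with counts had 1 to 9 each.

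A fit without the filter gave a test to these genes too. Among them Col4a6 (2.32 ± 0.74, SE, adjusted p = 0.00865), Adamts9 (2.42 ± 0.88, adjusted p = 0.024) and Mmp23 (2.54 ± 1.02, adjusted p = 0.0475) were higher in CD201+CD48− cells, and Lamb3 (−1.40 ± 0.50, adjusted p = 0.0217) was lower, against CD201− by edgeR. Col4a6 was also higher than in CD201+CD48+ cells (2.70 ± 0.73, adjusted p = 0.0041). For CD201+CD48+ against CD201− none of the genes that failed the filter passed (smallest adjusted p = 0.065, Adamts9). Of the 21720 genes in this fit, 2948 were called higher and 2950 lower for CD201+CD48− against CD201−. Between the CD201+ populations, 1076 were higher and 966 lower.

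Genes that process, inhibit and bind these proteins were read from 5 lists of 101 genes, counted here for CD201+CD48− against CD201− cells beside the 24.2% and 23.9% of all genes called higher and lower. The filter shapes these counts and the medians of the lists too. Of the genes called higher, 3 of 6, 3 of 4, 5 of 5, 4 of 8 and 2 of 3 reached the filter level in all 3 populations, in the order of the lists below. Those that did not were Serpinh1, Loxl2, Loxl3, Timp2, Itga2, Itga3, Ddr1, Gp6 and Plau. Of the genes called lower, Adamtsl3 and Ctsg did not. Of 27 genes of collagen processing, 18 were tested, 6 were higher and 2 lower, with a median log2 fold change of 0.24. Serpinh1, the collagen chaperone HSP47, averaged 8.90 ± 0.089, 3.41 ± 0.829 and 0.872 ± 0.573 CPM in the order CD201+CD48−, CD201+CD48+, CD201− (SD, n = 3). P3h3, a prolyl 3-hydroxylase family gene, averaged 53.4 ± 4.73, 42.3 ± 1.24 and 24.5 ± 2.97 CPM. P4hb, the beta subunit of prolyl 4-hydroxylase, which is also protein disulphide isomerase, was lower (448 ± 25.9, 472 ± 9.97 and 690 ± 23.6 CPM; −0.62 ± 0.08, SE, adjusted p = 8.72e-06).

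Of 9 protease inhibitor genes, 5 were tested and 4 were higher (median 1.28), while Timp1 and Timp4 had no count. Timp3, an inhibitor that binds to matrix, averaged 28.3 ± 3.64, 10.9 ± 0.366 and 11.7 ± 1.56 CPM, and Timp2 9.14 ± 1.16, 6.47 ± 0.628 and 2.26 ± 0.937 CPM. Serpine2, protease nexin-1, averaged 17.2 ± 1.52, 2.90 ± 0.272 and 3.70 ± 1.10 CPM. Timp3 and Serpine2 were thus high in CD201+CD48− cells and did not pass between the other populations (adjusted p = 0.654 and 0.352).

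Of 28 other matrix protein genes, 13 were tested, 5 were higher and 2 lower (median 0.14). Vcan, the proteoglycan versican, averaged 70.3 ± 1.33, 4.89 ± 0.853 and 5.53 ± 1.34 CPM (3.66 ± 0.15 for CD201+CD48− against CD201−, SE, adjusted p = 8.47e-11). Thbs1, thrombospondin-1 of platelet granules, averaged 150 ± 28.3, 2.50 ± 0.552 and 26.6 ± 3.04 CPM, and Emilin2, an elastin-associated glycoprotein, 51.3 ± 4.59, 91.2 ± 11.4 and 145 ± 8.97 CPM, lower in CD201+CD48− cells. Of 16 matrix receptor genes, 13 were tested, 8 were higher and 1 lower (median 1.55). Bcam, a receptor for the laminin alpha 5 chain, averaged 53.1 ± 4.91, 19.5 ± 1.89 and 3.72 ± 0.618 CPM. Sdc4, the heparan sulphate proteoglycan syndecan-4, averaged 34.4 ± 5.85, 15.8 ± 1.26 and 2.99 ± 0.868 CPM, and Gp6, the platelet collagen receptor, 13.9 ± 1.35, 0.382 ± 0.264 and 1.53 ± 0.421 CPM. Thbs1 and Gp6 had their lowest mean in CD201+CD48+ cells and were lower there than in CD201− cells by edgeR (adjusted p = 7.37e-08 and 0.0127). Vcan, Timp3 and Serpine2 also had their lowest mean there but did not pass (adjusted p = 0.544, 0.654 and 0.352). The summed megakaryocyte markers had this order too, mostly through Itga2b, and Gp6 is 1 of those markers. What part megakaryocyte cells had in these values was not tested.

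Of 21 other surface and matrix proteases, 11 were tested, with 3 higher and 3 lower (median −0.06). Adam22, a family member without protease activity, averaged 22.8 ± 2.98, 10.5 ± 0.729 and 6.64 ± 1.73 CPM, and heparanase, Hpse, 15.5 ± 0.543, 14.7 ± 1.78 and 6.20 ± 1.18 CPM. Adamtsl3, an Adamts-like gene without a protease domain, was lower, at 0.206 ± 0.223, 0.948 ± 0.512 and 4.15 ± 1.74 CPM (SD, n = 3). With 3, 18 and 57 counts in the same order, it entered the test through the CD201− libraries, where it is high. The same holds for Ctsg, also called lower, with 2, 8 and 40 counts.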

How the data were processed

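RNA of the sorted cells was amplified by a SMARTer method and sequenced in paired reads of 36 nt, per the labels' protocols. The values used are the raw gene counts deposited by the authors, whole numbers per gene and library. DESeq2 and the mm10 build are named in the submitters' processing notes, without versions. Which aligner and counter were run, on which annotation and with or without strand, is not stated in any source used here. The table holds 49585 genes and 3 further columns that match no sample and were not used, and a deposited normalized table was not used here.

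Counts were filtered with filterByExpr (minimum count 10), which left 11619 genes, scaled by TMM and fitted with edgeR 4.0.16 in R 4.3.3 (robust quasi-likelihood test, all 9 libraries, group as the only term). P-values were adjusted by Benjamini-Hochberg over all genes tested, with a threshold of 0.05. Standard errors were derived from the log2 fold change and its F statistic, and CPM use TMM-scaled library sizes. The common biological coefficient of variation was 8.64%. Libraries of 3810123 to 7072885 counts make 1 count worth little, so genes under about 10 counts have wide counting error. Alternatives were DESeq2 1.42.0, limma-voom (limma 3.58.1), other scalings and filters, fits of the compared groups alone, a replicate term and each library left out. The fitting script was tested on simulated counts.

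Every gene past the filter is named with its values, each untested gene with 10 or more counts is named with its counts, and up to 3 genes of each related list are named by smallest p for CD201+CD48− against CD201−. The gene families and lists were chosen with earlier results of these data known. Coordinates and promoter windows are those of RefSeq on GRCm38.p6, and exon lengths, used for length scaling alone, those of GENCODE vM39.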

Additional observations from a re-analysis of the deposited data

How the results depend on the processing

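Of 66 fold changes (22 genes, 3 comparisons), 32 passed and 25 of these passed under every alternative run, 8 keeping all libraries and 9 leaving out 1. The other 7 lost the call in at least 1 alternative (Col11a2 and Mmp2 for CD201+CD48− against CD201−; Col2a1, Col4a1, Col4a4 and Mmp28 for CD201+CD48+ against CD201−; Mmp17 between the CD201+ populations). None of the 32 turned sign, 8 further fold changes passed in at least 1 alternative, and the causes were not tested.

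The count of genes lower in CD201+CD48− against CD201− cells (2) was 1 with library size as the only scaling and 2 to 4 with a library left out, 4 without CD201− replicate 3. The 3 lower in CD201+CD48+ against CD201− became 1 with library size alone, with DESeq2 or without the filter, and 1 to 4 with a library left out: 1 without any of the CD201+CD48+ replicates and 4 without CD201− replicate 3. The 0 lower in CD201+CD48− than in CD201+CD48+ became 1 in a fit of those groups alone and 0 to 1 with a library left out, 1 without CD201− replicate 3. Genes called higher ranged from 11 to 13 (12 in the fit reported), 5 to 7 (7) and 7 to 11 (8) over the left-out libraries, in the order used in the text. Each fit applied its own filter, so these counts can hold genes outside the 22 tested, as both counts of 4 do.

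Signs that turned belonged to fold changes that did not pass. For CD201+CD48− against CD201−, Lama5 was 0.069 with library size alone and −0.273 to 0.023 with a library left out, and Col17a1 −0.001 without the filter and −0.138 to 0.228; Adamts1 was −0.231 to 0.635 and Adamts6 −0.193 to 0.148. For CD201+CD48+ against CD201−, Adamts6 was −0.041 to 0.196 and Col17a1 −0.293 to 0.056. Between the CD201+ populations, Adamts6 was −0.270 to 0.069, Lama5 −0.002 to 0.144 and Lamc1 −0.016 to 0.034.

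Over all genes, library size alone gave 3974 higher and 1685 lower for CD201+CD48− against CD201− (2807 and 2778 in the fit reported; 70.2% against 50.3% higher) and 2701 and 851 for CD201+CD48+ against CD201− (1723 and 1661; 76% against 50.9%). Between the CD201+ populations, 1052 were higher and 733 lower, and a fit of these groups alone gave 1763 and 1576. Leaving out CD201− replicate 3 gave 1822 and 1712 there, and CD201+CD48− replicate 1 gave 663 and 360.

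Same-numbered libraries did not deviate together (correlations from −0.113 to 0.045, own number best in 2 of 18 cases), so the numbers were not taken to pair samples. With the replicate number as a block, 12 genes were higher and 2 lower, 6 and 2, and 8 and 0 in the 3 comparisons, and over all genes 2690 and 2632, 1566 and 1472, and 872 and 569.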
